A study of Mus musculus with 6 samples.

Results

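The genes described here are those whose symbol starts with Psm, then a letter from a to g, then a number: the subunits of the proteasome, its activators and its assembly chaperones, together with a few genes that share the naming pattern. They were picked by symbol among all genes with a count in any of the 6 libraries, which gave 50 genes of 23871. The RNA came from mouse group 2 innate lymphoid cells (ILC2), which make type 2 cytokines at barrier sites. The cells were sorted as Lin-Thy1+ST2+ (ST2 is the IL-33 receptor chain) and their messenger RNA was sequenced in bulk. Every mouse was homozygous for an Id1 transgene under the proximal promoter of lck (Id1tg/tg), a promoter active mainly in developing T cells, made in FVB/N mice and then bred onto C57BL/J for many generations. Id1 blocks E protein transcription factors, T cell development is arrested in these mice, and all 3 groups carry the transgene. The first group is ILC2 from mesenteric lymph nodes (MLN) kept in culture for 1 week, where IL-33, IL-25 and IL-7 were added to 10 ng/ml of each (cultured). The second is ILC2 taken directly from the thymus, and the third is ILC2 taken directly from MLN (fresh MLN), with 2 libraries in each group. Sex and age are not stated, and neither is whether the 2 libraries of a group came from separate mice or cultures, so p-values measure the spread between these libraries, which may be technical.

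The proteasome is the protease that degrades proteins tagged with ubiquitin. Its 20S core is a barrel of alpha rings (Psma genes) around beta rings (Psmb genes), and only the beta subunits encoded by Psmb5, Psmb6 and Psmb7 cut peptide bonds. Under interferon, lymphoid and myeloid cells replace these with the immune subunits Psmb8, Psmb9 and Psmb10, which form the immunoproteasome and shift the peptides offered to MHC class I molecules. The 19S regulator recognises, unfolds and feeds substrates through a base of ATPases (Psmc genes) and a lid (most Psmd genes). PA28 (Psme1 and Psme2) is another cap that interferon induces.

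Start-site windows are shown first, for the immune subunits, for PA28 alpha and for the constitutive partner of Psmb8, because these genes moved in opposite directions in the 2 comparisons against fresh MLN. Each window runs from 250 bases before to 50 bases after the RefSeq transcription start (GRCm38.p6), 5′ to 3′ on the strand of the gene, and capitals mark motif matches on either strand. The windows lie at chr17:34197945-34198244 on the plus strand for Psmb8, chr8:105938343-105938642 on the minus strand for Psmb10, chr14:55578244-55578543 on the plus strand for Psme1 and chr14:54617946-54618245 on the minus strand for Psmb5.
Psmb8: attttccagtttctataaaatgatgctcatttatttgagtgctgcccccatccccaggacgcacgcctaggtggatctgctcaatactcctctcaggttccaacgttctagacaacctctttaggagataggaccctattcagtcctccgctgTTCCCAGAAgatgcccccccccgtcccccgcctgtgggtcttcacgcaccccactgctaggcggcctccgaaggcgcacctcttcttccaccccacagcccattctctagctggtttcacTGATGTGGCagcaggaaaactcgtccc
Psmb10: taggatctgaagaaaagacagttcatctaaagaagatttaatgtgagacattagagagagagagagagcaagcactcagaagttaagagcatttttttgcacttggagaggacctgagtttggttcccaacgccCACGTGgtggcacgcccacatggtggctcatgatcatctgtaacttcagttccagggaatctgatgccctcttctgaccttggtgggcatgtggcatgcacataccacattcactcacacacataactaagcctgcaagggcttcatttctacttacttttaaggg
Psme1: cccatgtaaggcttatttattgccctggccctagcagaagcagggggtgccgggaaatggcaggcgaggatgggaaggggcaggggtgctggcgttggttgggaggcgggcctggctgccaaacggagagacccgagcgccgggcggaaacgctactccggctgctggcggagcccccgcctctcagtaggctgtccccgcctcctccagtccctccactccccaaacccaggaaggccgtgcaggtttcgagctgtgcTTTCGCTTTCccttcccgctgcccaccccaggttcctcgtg
Psmb5: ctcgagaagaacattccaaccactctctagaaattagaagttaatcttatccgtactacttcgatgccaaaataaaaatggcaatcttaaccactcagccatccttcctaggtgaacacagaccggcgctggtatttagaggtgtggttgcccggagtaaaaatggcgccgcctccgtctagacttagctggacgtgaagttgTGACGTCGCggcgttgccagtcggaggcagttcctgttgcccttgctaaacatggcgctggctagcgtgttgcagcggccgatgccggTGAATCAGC

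Each motif was searched on both strands, and the matches are letters in a window, not mapped binding sites. The capitals in Psmb8 are a gamma-activated sequence TTCNNNGAA (GAS, an interferon-gamma response motif), 97 bases before the start, and an antioxidant response element core TGANNNNGC (ARE, bound by Nfe2l1 and Nfe2l2), 24 bases after it. The capitals in Psme1 are an interferon-stimulated response element GAAANNGAAA (ISRE), found on the opposite strand 10 bases after the start. Psmb5 holds 2 ARE matches, 47 bases before and 42 bases after its start, and Psmb10 holds an E-box CACGTG 116 bases before its start. The ISRE letters were in 3.44% of 32851 mouse promoters of this length and in 5 of the 41 proteasome genes with a window (Psmb3, Psmd4, Psmd9, Psme1 and Psmg4). The GAS letters were in 8.30% of all windows and in 3 of the 41 (Psmb8, Psmd2 and Psmg1). ARE letters are common, at 41.3% of all windows, and 23 of the 41 proteasome genes had them. CCAAT, the box bound by NF-Y, was in 37.4% of all windows and in 14 of the 41, and CACGTG in 7.15% and in 4 of the 41. Psmb7 is not among the genes with a window.

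Library totals ran from 35280692 to 40578264 counts, and 16231 genes had enough counts for testing. All values are given as CPM, the count scaled to a common library size with TMM factors, and a gene is called where its adjusted p (edgeR's quasi-likelihood test, Benjamini-Hochberg over all genes tested) is under 0.05. The sorted cells carried ILC2 genes in all 6 libraries: 10 ILC2 markers together reached 23077 to 24439 CPM in the cultured libraries, 6625 to 6750 CPM in the thymus libraries and 8652 to 8714 CPM in the fresh MLN libraries. Most of the cultured sum was Il13 (10275 and 10067 CPM) and Il5 (8984 and 7736 CPM). Of the 10 genes, 2 were higher and 5 lower in thymus than in fresh MLN cells (25.3% and 22.0% of all genes tested). The 5 were Klrg1 (log2 fold change -1.33), Areg (-0.95), Il17rb (-0.81), Il7r (-0.67) and Il1rl1 (-0.35). In cultured over fresh MLN, 6 were higher and 4 lower (39.4% and 38.1% of all genes). The 4 were Il17rb (log2 fold change -4.69), Rora (-2.07), Thy1 (-1.57) and Il7r (-1.42). Genes of cell division set fresh MLN cells apart from cultured and thymus cells. All 12 cell cycle genes examined were higher in cultured and in thymus cells than in fresh MLN cells. Over all genes tested, 39.4% and 25.3% were called higher in these comparisons. In cultured over thymus, 6 of the 12 were higher, 1 lower and 5 not called (34.8% higher and 37.8% lower over all genes). Mki67 had 579.8 and 600.0 CPM in the cultured, 709.5 and 616 CPM in the thymus and 22.5 and 19.03 CPM in the fresh MLN libraries.

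Most proteasome genes were highest in cultured ILC2, intermediate in thymus ILC2 and lowest in fresh MLN ILC2. The immune catalytic subunits measured and PA28 alpha (Psme1) ran the other way. PA28 beta (Psme2 summed with its copy Psme2b) was lower in cultured and thymus cells than in fresh MLN cells. Between cultured and thymus cells that sum was not called. Of the 48 genes with enough counts to test, 36 were higher and 6 lower in cultured than in fresh MLN cells, where 77.6% of all genes tested were called (39.4% higher, 38.1% lower). In thymus over fresh MLN, 29 were higher and 6 lower, where 47.3% of all genes were called (25.3% higher, 22.0% lower). In cultured over thymus, 31 were higher and 6 lower, where 72.7% of all genes were called (34.8% higher, 37.8% lower). The median log2 fold change of the 48 genes was 0.71 in cultured over fresh MLN, 0.25 in thymus over fresh MLN and 0.40 in cultured over thymus, beside medians over all genes of -0.01, 0.00 and -0.06. The 3 comparisons share libraries in pairs and are not independent of each other.

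Among these genes, the core is formed by the 31 subunits of the constitutive 20S particle and the 19S regulator. Of the 31, 29 were higher and none lower in cultured than in fresh MLN cells, 26 higher and none lower in thymus than in fresh MLN cells, and 27 higher and none lower in cultured than in thymus cells. The core medians were log2 fold changes of 0.99, 0.35 and 0.55 in that order of comparisons. In 27 of the 31, both cultured libraries lay above both thymus libraries and these above both fresh MLN libraries, an order found in 17.6% of all genes tested; Psma3, Psma4, Psmd4 and Psmd11 did not have it. Pairwise, the groups of the 48 tested genes did not overlap for 48 in cultured over fresh MLN (89.2% of all genes), for 41 in thymus over fresh MLN (72.8%) and for 43 in cultured over thymus (86.0%). The opposite order, with no overlap, was found in 19.4% of all genes and in 4 proteasome genes: Psmb8, Psmb10, Psme1 and Psme2. Psme2b, the near-identical copy of Psme2, did not have it (log2 fold change -0.08 in cultured over thymus, edgeR adjusted p = 0.34). It held 69.6% to 73.6% of the summed level of the 2 copies. Summed over the 31 core genes, the level was 4075 and 4199 CPM in the cultured libraries, 2675 and 2844 CPM in the thymus libraries and 2234 and 2151 CPM in the fresh MLN libraries. Scaling by library totals instead of TMM moved the median of all genes by -0.22 in cultured over fresh MLN and by -0.26 in cultured over thymus, and the median of the 48 proteasome genes above it stayed at 0.72 and 0.45. Under that scaling 41.8% of the calls over all genes were higher in cultured than in fresh MLN cells (50.8% with TMM) and 35.1% higher in cultured than in thymus cells (47.9% with TMM). With library totals, 28 core subunits were higher in cultured than in fresh MLN cells, and in cultured over thymus 21 were higher and 1 lower (Psma4). The calls lost were that of Psmd4 in cultured over fresh MLN and, in cultured over thymus, those of Psmb3, Psmc2, Psmc4, Psmc5, Psmd4 and Psmd6. The log2 fold changes of Psmc2 and Psmd4 turned to -0.04 and -0.03 there.

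**Figure D1:**
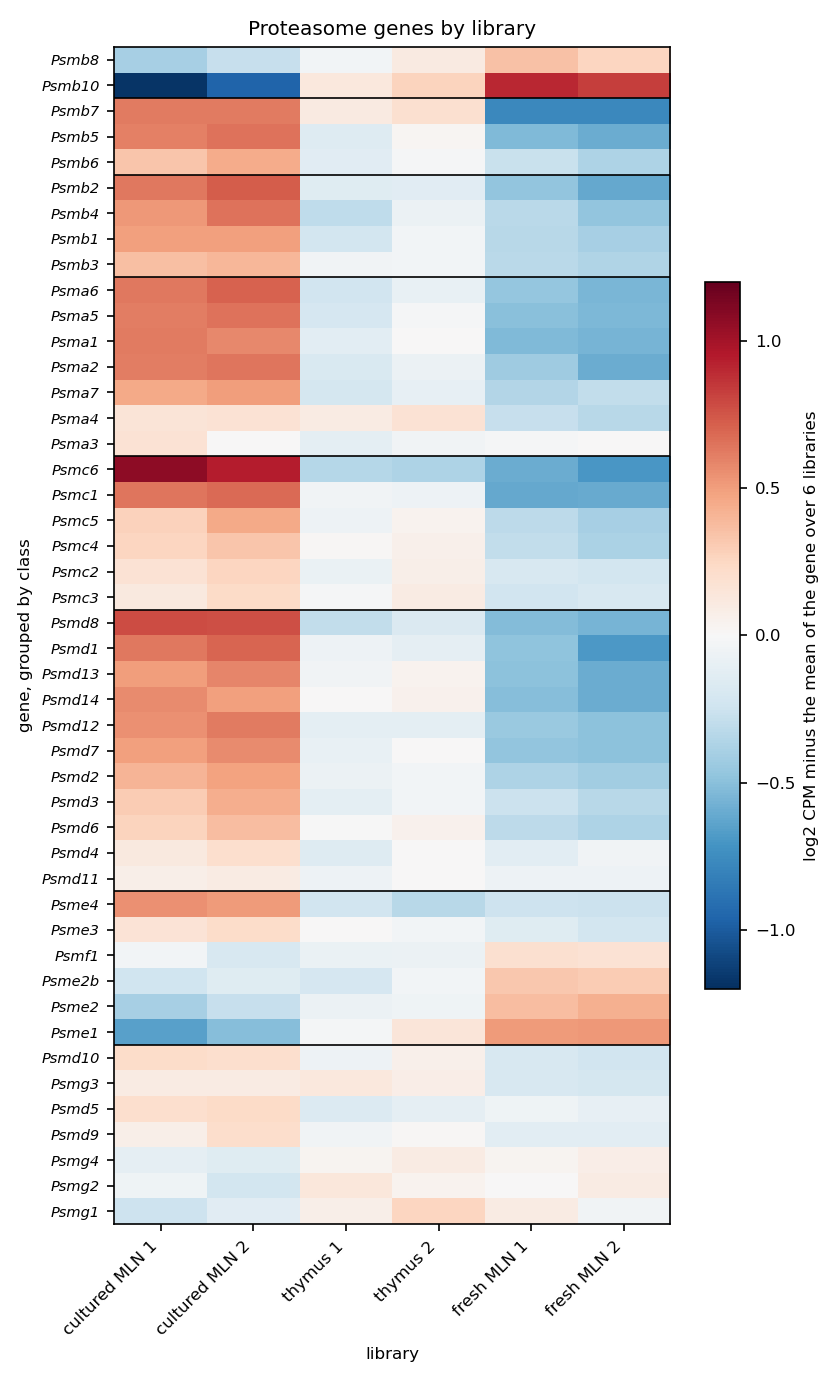
Heat map of the proteasome genes that were tested (rows, grouped by class, without Psma8 and Psmc3ip) in the 6 libraries (columns), coloured by log2 CPM minus the mean of the gene over the 6 libraries; colours saturate at the ends of the bar. Most core subunits run from high in the cultured libraries to low in the fresh MLN libraries, and Psmb8, Psmb10, Psme1 and Psme2 run the other way. In Psme2b the cultured and thymus libraries overlap.

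Among the constitutive catalytic subunits, all 3 were higher in both cultured and thymus cells than in fresh MLN cells, and higher in cultured than in thymus cells. Psmb7 (ENSMUSG00000026750), the trypsin-like subunit, had 120.3 and 121 CPM in the cultured libraries, 84.4 and 89.4 CPM in the thymus libraries and 45.8 and 45.6 CPM in the fresh MLN libraries. Its libraries did not overlap between any groups, and its thymus level stood nearer to the cultured than to the fresh MLN level. It rose 2.64-fold in cultured over fresh MLN cells (log2 fold change 1.40 ± 0.07 SE, edgeR adjusted p = 3.2e-10), 1.90-fold in thymus over fresh MLN cells (0.93 ± 0.07, adjusted p = 1.2e-07) and 1.39-fold in cultured over thymus cells (0.47 ± 0.06, adjusted p = 1.7e-05). In thymus over fresh MLN this was the largest change of any core subunit.

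Psmb5 (ENSMUSG00000022193), the chymotrypsin-like subunit that bortezomib blocks, had 60.8 and 62.8 CPM in cultured cells, 36.0 and 40.6 CPM in thymus cells and 27.6 and 26.4 CPM in fresh MLN cells. The groups were again separate and in the same order. The changes were 2.29-fold in cultured over fresh MLN (edgeR adjusted p = 1.4e-08), 1.42-fold in thymus over fresh MLN (adjusted p = 0.00023) and 1.61-fold in cultured over thymus (adjusted p = 3.6e-06). Psmb6 (ENSMUSG00000018286), the caspase-like subunit, had 98.7 and 107 CPM in cultured cells, 71.4 and 77.7 CPM in thymus cells and 65.3 and 60.8 CPM in fresh MLN cells. It kept the order with smaller steps, 1.63-fold in cultured over fresh MLN (adjusted p = 1.2e-06), 1.38-fold in cultured over thymus (adjusted p = 7.6e-05) and 1.18-fold in thymus over fresh MLN (adjusted p = 0.016). The last of these calls was lost when thymus replicate 2 or fresh MLN replicate 2 was left out.

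Both immune catalytic subunits measured fell in each comparison. Psmb10 (ENSMUSG00000031897), which takes the place of Psmb7, had 41.7 and 48.4 CPM in the cultured libraries, 103 and 113 CPM in the thymus libraries and 176 and 167 CPM in the fresh MLN libraries. No library of one group reached the range of another, and the cultured libraries were lowest. The level was 3.81-fold lower in cultured than in fresh MLN cells (log2 fold change -1.93 ± 0.08 SE, edgeR adjusted p = 1.4e-10), 2.397-fold lower in cultured than in thymus cells (adjusted p = 1.3e-08) and 1.59-fold lower in thymus than in fresh MLN cells (adjusted p = 1.6e-05). In cultured over fresh MLN this was the largest change of any proteasome gene tested, in either direction.

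Psmb8 (ENSMUSG00000024338), which takes the place of Psmb5, had 206 and 224 CPM in cultured cells, 264 and 291 CPM in thymus cells and 345 and 324 CPM in fresh MLN cells. The groups did not overlap, and the steps between them were smaller than for Psmb10. It was 1.56-fold lower in cultured than in fresh MLN cells (edgeR adjusted p = 4.2e-06), 1.29-fold lower in cultured than in thymus cells (adjusted p = 0.00063) and 1.204-fold lower in thymus than in fresh MLN cells (adjusted p = 0.01), a call that was lost without thymus replicate 1 or fresh MLN replicate 1. Psmb9, the immune counterpart of Psmb6, was not analysed here. In bulk RNA, fewer cells of a type and less RNA per cell cannot be told apart, and this holds for each level in these libraries.

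**Figure D2:**
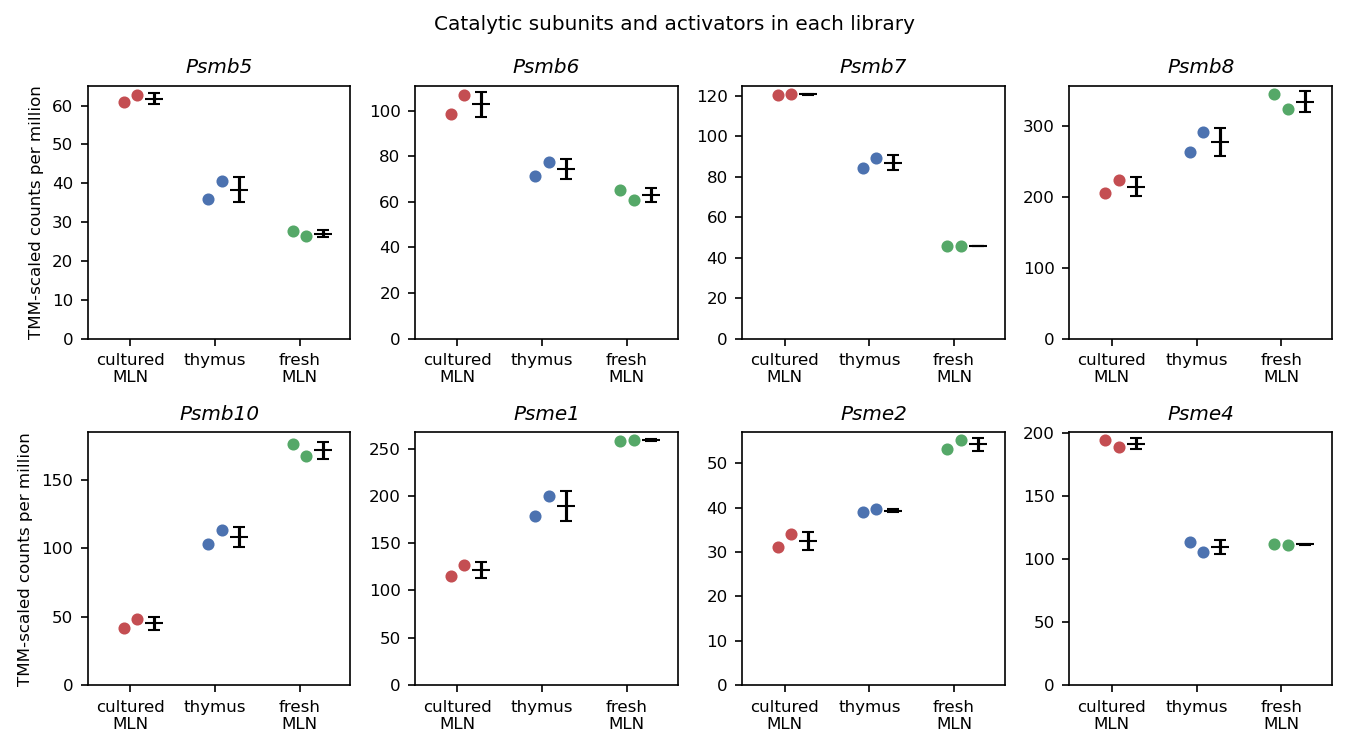
CPM (y axis, from 0) of catalytic subunits and activators in each library (points), by group from cultured to thymus to fresh MLN, with the group mean and its SD (bars, n = 2) beside them. Psmb5, Psmb6 and Psmb7 step down from the cultured to the fresh MLN libraries, while Psmb8, Psmb10 and Psme1 step up.

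Because the constitutive and immune subunits compete for the same places in the ring, their messages were also compared per transcript length, as CPM per kilobase of the principal transcript. Of the paired messages for Psmb10 and Psmb7, Psmb10 made up 23.5% and 26.2% in the cultured libraries, 51.9% and 52.9% in the thymus libraries and 77.3% and 76.5% in the fresh MLN libraries. The means were 24.8% ± 1.89 in cultured cells, 52.4% ± 0.700 in thymus cells and 76.9% ± 0.584 in fresh MLN cells (SD, n = 2 each). By this length, Psmb7 messages outnumbered Psmb10 messages in both cultured libraries and Psmb10 messages outnumbered Psmb7 messages in both fresh MLN libraries. The thymus libraries lay near parity by the same length. Of the paired messages for Psmb8 and Psmb5, Psmb8 made up 65.1% and 66.3% in the cultured libraries, 80.2% and 79.9% in the thymus libraries and 87.3% and 87.1% in the fresh MLN libraries. With these lengths Psmb8 remained the more abundant message of its pair in all 6 libraries. Which message of a pair is higher rests on the length used. It was 1628 bases for Psmb8, 899 for Psmb5, 1311 for Psmb10 and 1160 for Psmb7. All annotated exons together span 3381, 899, 1705 and 3421 bases in that order, and shares with those lengths were not computed. The groups did not overlap for either pair, and with 2 libraries against 2 an exact permutation test cannot give a two-sided p below 0.333. On the log2 scale the Psmb10 to Psmb7 ratio differed by -3.33 in cultured over fresh MLN cells, by -1.74 in cultured over thymus cells and by -1.60 in thymus over fresh MLN cells. The Psmb8 to Psmb5 ratio differed by -1.83, -1.06 and -0.77 in the same comparisons. These are shares of message, and the subunits built into particles were not measured.

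**Figure D3:**
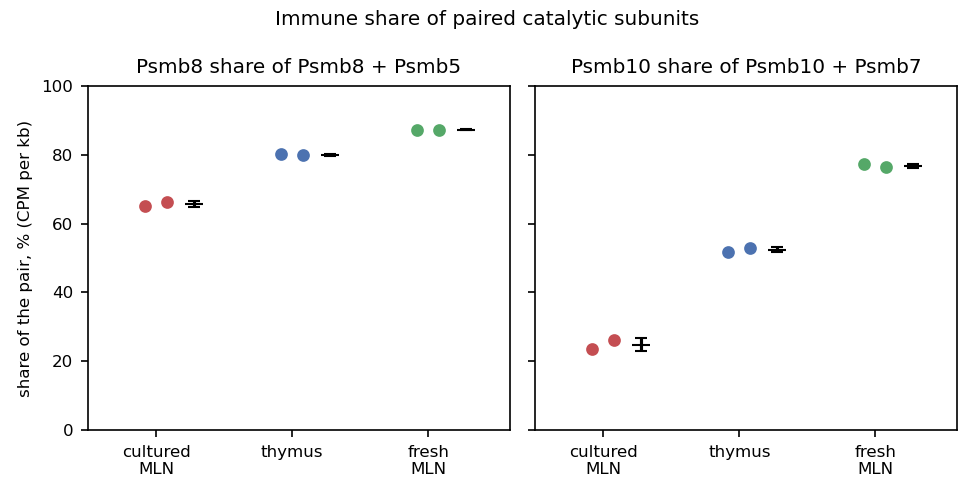
Share of the immune subunit in each pair of catalytic messages (y axis, percent of the summed CPM per kb of the pair) in each library (points), by group, with the mean and its SD (bars, n = 2). The Psmb10 share lies between 23.5% and 26.2% in the cultured libraries, between 51.9% and 52.9% in the thymus libraries and between 76.5% and 77.3% in the fresh MLN libraries; the Psmb8 share runs between 65.1% and 87.3%.

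The caps of the core particle separated by type. Psme1 (ENSMUSG00000022216), the PA28 alpha subunit, had 115 and 127 CPM in the cultured libraries, 178 and 200.3 CPM in the thymus libraries and 258 and 259.6 CPM in the fresh MLN libraries. The cultured libraries were lowest and the fresh MLN libraries highest, with no overlap. It was 2.13-fold lower in cultured than in fresh MLN cells (edgeR adjusted p = 2.1e-08), 1.56-fold lower in cultured than in thymus cells (adjusted p = 5.5e-06) and 1.37-fold lower in thymus than in fresh MLN cells (adjusted p = 0.00031). Its partner PA28 beta is represented by Psme2 and the near-identical copy Psme2b, between which reads may have been split, so the summed level is the safer value. Summed, they had 118 and 127 CPM in the cultured libraries, 129 and 139.9 CPM in the thymus libraries and 183 and 182 CPM in the fresh MLN libraries, with log2 fold changes of -0.57 in cultured over fresh MLN and -0.44 in thymus over fresh MLN, both called. In cultured over thymus the sum had a log2 fold change of -0.13 and was not called (edgeR adjusted p = 0.099), whereas Psme2 alone was called (-0.27, adjusted p = 0.0056). That call was lost without cultured replicate 1.

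Psme4 (PA200), a nuclear activator linked to the degradation of acetylated histones, was higher in cultured cells than in both fresh groups. It had 195 and 189 CPM in cultured cells, 114 and 106 CPM in thymus cells and 112 and 111 CPM in fresh MLN cells, so that the thymus and fresh MLN libraries overlapped. It was 1.72-fold higher in cultured than in fresh MLN cells (edgeR adjusted p = 1.3e-07) and 1.75-fold higher in cultured than in thymus cells (adjusted p = 1.2e-07), with a log2 fold change of -0.03 ± 0.07 SE in thymus over fresh MLN (adjusted p = 0.75). Psme3 (PA28 gamma), the nuclear relative of PA28, averaged 183 ± 4.96 CPM in cultured cells, 159 ± 2.91 CPM in thymus cells and 141 ± 5.51 CPM in fresh MLN cells (SD, n = 2 each). It was higher in cultured cells than in either fresh group (log2 fold change 0.37 against fresh MLN and 0.20 against thymus). Its thymus over fresh MLN call (0.17, adjusted p = 0.044) was lost under most alternatives, and its cultured over thymus call was lost without thymus replicate 2, without cultured replicate 2 and with library totals, where it turned to -0.06. Psmf1 (PI31), known as an inhibitor of the 20S particle in vitro, averaged 45.3 ± 3.36 CPM in cultured, 46.5 ± 0.130 CPM in thymus and 55.6 ± 0.442 CPM in fresh MLN cells. It was lower in both cultured (-0.30) and thymus cells (-0.26) than in fresh MLN cells, and these 2 calls were lost without cultured replicate 2 and without fresh MLN replicate 1, one each.

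The alpha ring, which gates the barrel, rose in most of its genes. Of its 7 genes, 6 were higher in cultured than in fresh MLN cells, 5 in thymus than in fresh MLN cells and 5 in cultured than in thymus cells, with median log2 fold changes of 1.14, 0.38 and 0.66. Psma6 had the largest change in culture, with 156 and 164 CPM in cultured cells, 85.2 and 94.0 CPM in thymus cells and 72.4 and 68.4 CPM in fresh MLN cells. Its groups were separate, and it was 2.27-fold higher in cultured than in fresh MLN cells (edgeR adjusted p = 4.4e-09). Psma1 changed most in thymus over fresh MLN, with 181 and 176 CPM in cultured cells, 108 and 118 CPM in thymus cells and 81.4 and 79.5 CPM in fresh MLN cells and a 1.40-fold rise (adjusted p = 6.6e-05). Psma2 and Psma5 followed the same order, with log2 fold changes of 1.14 and 1.15 in cultured over fresh MLN. Psma7 was higher in cultured cells than in both fresh groups, and in thymus over fresh MLN its log2 fold change was 0.17 (adjusted p = 0.051). The latter was called higher with library totals, with a replicate block and without thymus replicate 1.

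A pair of alpha subunits departed from this. Psma3 had 33.3 and 29.7 CPM in cultured cells, 27.3 and 28.7 CPM in thymus cells and 29.4 and 29.6 CPM in fresh MLN cells, with log2 fold changes of 0.09 in cultured over fresh MLN, -0.08 in thymus over fresh MLN and 0.17 in cultured over thymus, none of them called. The last of these was called higher with RLE factors, in the fit on 2 groups and without cultured replicate 2, and it turned to -0.09 with library totals. The first turned to -0.13 there. Psma4 was higher in cultured cells (73.3 and 74.5 CPM) and in thymus cells (70.7 and 74.1 CPM) than in fresh MLN cells (54.5 and 52.5 CPM). Between cultured and thymus cells it overlapped (log2 fold change 0.03), and under library-total scaling that value became -0.23 and was called lower. Psma8, the testis-specific alpha subunit, had only 62 counts over the 6 libraries and no call.

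The 4 beta subunits without a catalytic site were all higher in cultured than in fresh MLN cells and than in thymus cells, and 3 of them in thymus than in fresh MLN cells. Psmb2 led each time, with 129 and 137 CPM in cultured cells, 75.0 and 75.4 CPM in thymus cells and 59.5 and 54.2 CPM in fresh MLN cells and a 2.34-fold rise in cultured over fresh MLN (edgeR adjusted p = 2.7e-09). Psmb1 had 214 and 214 CPM in cultured cells, 130.2 and 149 CPM in thymus cells and 120.2 and 115 CPM in fresh MLN cells, and its groups were separate. Its thymus over fresh MLN call (log2 fold change 0.25) was lost without thymus replicate 2 or fresh MLN replicate 2. Psmb4 had 194 and 212 CPM in cultured cells, 109 and 128 CPM in thymus cells and 108 and 97.0 CPM in fresh MLN cells, and its thymus over fresh MLN change missed the threshold (0.21 ± 0.09 SE, adjusted p = 0.061). It was called higher with library totals, with no filter, with a replicate block and without thymus replicate 1 or fresh MLN replicate 1. Psmb3 had the smallest changes in culture, 1.65-fold over fresh MLN and 1.34-fold over thymus.

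The 6 ATPases of the 19S base, the motor that pulls substrates into the barrel, were all higher in cultured and in thymus cells than in fresh MLN cells. Their log2 fold changes in cultured over fresh MLN ran from 0.39 for Psmc3 to 1.66 for Psmc6. Psmc6 had 284 and 258 CPM in the cultured libraries, 106 and 104 CPM in the thymus libraries and 89.0 and 83.0 CPM in the fresh MLN libraries. Both cultured libraries lay far above the other 4, and the thymus libraries only slightly above the fresh MLN libraries. It was 3.15-fold higher in cultured than in fresh MLN cells (log2 fold change 1.66 ± 0.07 SE, edgeR adjusted p = 1.5e-10) and 2.58-fold higher in cultured than in thymus cells (adjusted p = 1.3e-09), the largest rise of any core subunit in each of these comparisons. In thymus over fresh MLN the change was 1.22-fold (adjusted p = 0.0048), a call lost without fresh MLN replicate 2.

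Psmc1 had 136 and 139 CPM in cultured cells, 84.5 and 83.7 CPM in thymus cells and 56.8 and 57.1 CPM in fresh MLN cells, a 2.42-fold rise in cultured and a 1.48-fold rise in thymus over fresh MLN, the largest of the ATPases in thymus over fresh MLN. Psmc4 and Psmc5 were 1.55-fold and 1.65-fold higher in cultured than in fresh MLN cells. Psmc2 and Psmc3 changed least, with log2 fold changes of 0.42 and 0.39 in cultured over fresh MLN. Psmc3 had 143 and 156 CPM in cultured cells, 131 and 142 CPM in thymus cells and 113 and 116 CPM in fresh MLN cells and was not called between cultured and thymus cells (0.13, edgeR adjusted p = 0.098), although RLE factors, DESeq2 and the fit on 2 groups called it higher and library totals turned it to -0.12. Its thymus over fresh MLN call (0.25) was lost without thymus replicate 2. The thymus over fresh MLN call of Psmc2 (0.20, adjusted p = 0.031) was lost without thymus replicate 2 or either fresh MLN replicate, and with RLE factors or DESeq2. Its cultured over thymus call (0.22) was lost without thymus replicate 1 or cultured replicate 2 as well as with library totals.

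Among the 11 other subunits of the 19S regulator, 10 were higher in cultured than in fresh MLN cells, 9 in thymus than in fresh MLN cells and 10 in cultured than in thymus cells. Psmd8, a lid subunit, had 225 and 223 CPM in cultured cells, 106 and 116 CPM in thymus cells and 91.0 and 89.0 CPM in fresh MLN cells. Both cultured libraries stood far above the rest, with a 2.49-fold rise over fresh MLN cells (edgeR adjusted p = 7.6e-10) and a 2.02-fold rise over thymus cells (adjusted p = 1.3e-08). Psmd14, the metalloprotease that removes ubiquitin chains as a substrate enters, had 103 and 98.1 CPM in cultured cells, 69.9 and 72.1 CPM in thymus cells and 48.9 and 46.1 CPM in fresh MLN cells. It showed the largest thymus over fresh MLN change of this class, 1.49-fold (adjusted p = 1.6e-05), and was 2.12-fold higher in cultured than in fresh MLN cells. The scaffold subunits of the base, Psmd1 and Psmd2, were 2.37-fold and 1.79-fold higher in cultured than in fresh MLN cells.

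The lid subunits Psmd3, Psmd6, Psmd7, Psmd12 and Psmd13 had every cultured library above every thymus library and every thymus library above every fresh MLN library, with log2 fold changes between 0.66 and 1.09 in cultured over fresh MLN. The thymus over fresh MLN call of Psmd3 (0.22) was lost without thymus replicate 2 or fresh MLN replicate 2. Psmd4, a ubiquitin receptor, and Psmd11, a lid subunit, had the smallest log2 fold changes of the class against fresh MLN. Psmd4 had 119 and 126 CPM in cultured cells, 99.1 and 111 CPM in thymus cells and 101 and 107 CPM in fresh MLN cells. The thymus and fresh MLN libraries overlapped (log2 fold change 0.01, edgeR adjusted p = 0.92), and its call in cultured over fresh MLN (0.24) was lost without cultured replicate 2, without fresh MLN replicate 1 or with library totals. Its call in cultured over thymus (0.23) was lost without thymus replicate 1, without cultured replicate 2 or with library totals. Psmd11 had 75.4 and 77.0 CPM in cultured cells, 68.6 and 71.99 CPM in thymus cells and 69.0 and 68.8 CPM in fresh MLN cells and no call in any comparison, with a log2 fold change of 0.15 in cultured over fresh MLN that turned to -0.08 with library totals. It was called higher with RLE factors, with DESeq2, in the fit on 2 groups, with a replicate block and without either thymus replicate. In cultured over thymus (0.12) it was called higher with RLE factors and DESeq2 and turned to -0.14 with library totals.

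**Figure D4:**
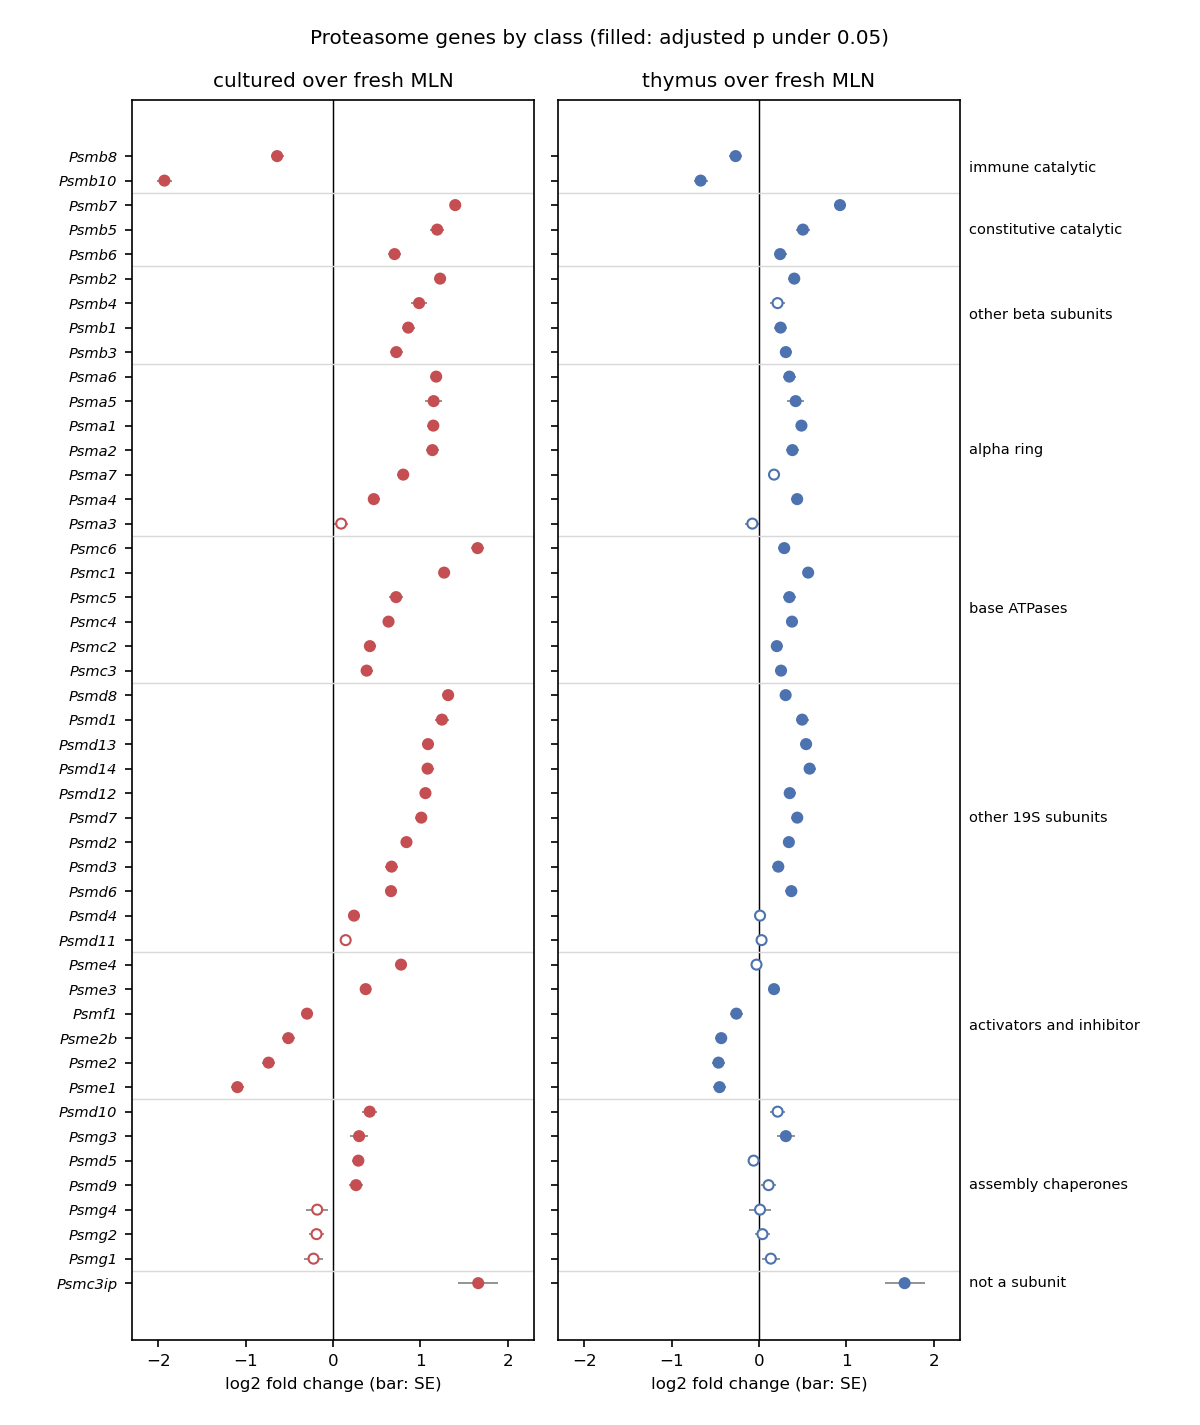
Log2 fold change (x axis; bars are SE) of each tested proteasome gene but Psma8 (rows, by class) in cultured over fresh MLN (left) and thymus over fresh MLN (right); filled points have an adjusted p under 0.05. Nearly all core subunits lie right of 0, Psmb8, Psmb10, Psme1 and Psme2 lie left of 0 in both panels, and Psmc6 in cultured cells and Psmb7 in thymus cells have the largest positive changes among the core subunits.

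The dedicated assembly chaperones, which build the rings and the base and then leave, had smaller median changes than the core. Of 7, 4 were higher in cultured than in fresh MLN cells (Psmd5, Psmd9, Psmd10 and Psmg3), 1 in thymus than in fresh MLN cells (Psmg3), and in cultured over thymus 2 were higher (Psmd5 and Psmd10) and 2 lower (Psmg1 and Psmg2). Their median log2 fold changes were 0.26, 0.11 and -0.01. In cultured over fresh MLN the calls of Psmd5, Psmd9 and Psmg3 were lost with library totals, that of Psmd9 also without cultured replicate 2, and that of Psmg3 also without fresh MLN replicate 2 or either cultured replicate. Psmd10 (gankyrin), a base chaperone, had 29.9 and 29.4 CPM in cultured cells, 24.6 and 26.8 CPM in thymus cells and 22.5 and 21.8 CPM in fresh MLN cells. Its change in cultured over fresh MLN was 1.34-fold (edgeR adjusted p = 0.00044). Its cultured over thymus call (0.21) was lost with no filter, with protein-coding genes only and without thymus replicate 1 or either cultured replicate. With library totals it was lost and turned to -0.05. In thymus over fresh MLN (0.21) it was called higher with library totals, with a replicate block and without thymus replicate 1. Psmd5, also a base chaperone, averaged 56.8 ± 0.656 CPM in cultured, 44.5 ± 1.23 CPM in thymus and 46.4 ± 0.970 CPM in fresh MLN cells.

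Psmg1, which pairs with Psmg2 to assemble the alpha ring, had 15.02 and 16.2 CPM in cultured cells, 18.7 and 21.4 CPM in thymus cells and 19.1 and 17.3 CPM in fresh MLN cells. The cultured libraries were lowest, at 1.28-fold below the thymus libraries (edgeR adjusted p = 0.0074), a call lost without thymus replicate 2 or cultured replicate 1. Psmg2 had 23.5 and 20.9 CPM in cultured cells, 26.8 and 25.1 CPM in thymus cells and 24.5 and 26.1 CPM in fresh MLN cells, with a log2 fold change of -0.23 in cultured over thymus (adjusted p = 0.036). Psmg3 and Psmg4, another pair of alpha ring chaperones, had 13.7 and 13.6 CPM and 7.69 and 7.50 CPM in the cultured libraries, 13.9 and 13.5 CPM and 8.48 and 8.88 CPM in the thymus libraries, and 11.2 and 11.02 CPM and 8.45 and 8.76 CPM in the fresh MLN libraries. Calls of these low genes moved with the library left out: that of Psmg3 in thymus over fresh MLN (0.31) was lost without either replicate of either group, and that of Psmg2 in cultured over thymus was lost without thymus replicate 1 or cultured replicate 2, with RLE factors, with DESeq2 and in the fit on 2 groups. In cultured over fresh MLN, Psmg1 (-0.22) and Psmg2 (-0.19) were not called but were called lower with upper-quartile factors, with library totals and with protein-coding genes only.

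A few genes that match the naming pattern were nearly undetected or encode no subunit. Psmb11, the catalytic subunit of the thymoproteasome of cortical thymic epithelium, had 7 counts over the 6 libraries, 0 and 0.0551 CPM in the cultured, 0.0493 and 0.0798 CPM in the thymus and 0 and 0 CPM in the fresh MLN libraries, and was not tested. The pseudogene Psmb7-ps2 had 2 counts in all. Psmc3ip, which acts in meiotic recombination and is not a subunit, had 4.34 and 5.57 CPM in cultured cells, 5.79 and 4.15 CPM in thymus cells and 1.67 and 1.46 CPM in fresh MLN cells. It was 3.17-fold higher in thymus and 3.17-fold higher in cultured than in fresh MLN cells (edgeR adjusted p = 6.4e-05 and 2.0e-05), with cultured and thymus libraries overlapping. Psmb5-ps and Psmb6-ps had no counts.

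Although the finished particle holds its subunits in fixed numbers, their messages differed widely per length. Psma7 ranked first of the 31 core genes in every group, with mean levels of 180.1 CPM per kb in cultured, 116 in thymus and 103 in fresh MLN cells. Psma3 ranked last in every group, with 11.1 CPM per kb in cultured, 9.83 in thymus and 10.4 in fresh MLN cells. Psmb7 stood in place 10 in cultured and thymus cells and in place 17 in fresh MLN cells, and Psmc6 in place 9 in cultured, 22 in thymus and 18 in fresh MLN cells. The spread over the core genes, as a coefficient of variation of the levels per length, was 48.6% and 48.5% in the cultured libraries, 41.6% and 43.7% in the thymus libraries and 46.5% and 47.7% in the fresh MLN libraries. Outside the core, Psmb8 averaged 132 CPM per kb in cultured, 171 in thymus and 206 in fresh MLN cells, and Psme1 averaged 109 CPM per kb in cultured, 170.3 in thymus and 233 in fresh MLN cells. In fresh MLN cells both of these means lay above that of Psma7 at 103 CPM per kb, and in cultured cells both lay below that of Psma7 at 180.1 CPM per kb. These levels rest on a single transcript length for each gene, taken from an annotation of a later build than the counts.

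The genes of interferon signalling, which drives the immune subunits, were set beside them. Of 14 genes, 10 were lower and 2 higher in cultured than in fresh MLN cells, 8 lower and 1 higher in thymus than in fresh MLN cells, and 10 lower and 4 higher in cultured than in thymus cells. Their median log2 fold changes were -0.65, -0.36 and -0.70. Over all genes tested, 39.4% were called higher and 38.1% lower in cultured than in fresh MLN cells. The shares were 25.3% and 22.0% in thymus over fresh MLN, and 34.8% and 37.8% in cultured over thymus. Counts in the lists that follow are to be read beside the same shares. Irf1, an interferon-induced transcription factor that binds immune subunit promoters, had 143 and 149 CPM in cultured cells, 182 and 202 CPM in thymus cells and 349 and 384 CPM in fresh MLN cells. The cultured libraries were lowest and the fresh MLN libraries highest, with log2 fold changes of -1.32 in cultured over fresh MLN and -0.93 in thymus over fresh MLN (edgeR adjusted p = 3.0e-09 and 4.9e-07). Nlrc5, the transactivator of MHC class I genes, had 80.6 and 84.9 CPM in cultured cells, 229 and 178 CPM in thymus cells and 573 and 540.1 CPM in fresh MLN cells, an order that both genes shared with Psmb10. Irf8 was an exception, higher in cultured than in fresh MLN cells (log2 fold change 1.23) and lower in thymus than in fresh MLN cells (-1.73), at 16.3 and 16.2 CPM in cultured, 1.85 and 2.31 CPM in thymus and 7.40 and 6.40 CPM in fresh MLN libraries.

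In MHC class I processing, 8 of 11 genes were lower and 3 higher in both cultured and thymus cells than in fresh MLN cells, and 6 were lower and 5 higher in cultured than in thymus cells. Tap1, a peptide transporter chain, had 199 and 208 CPM in cultured cells, 313 and 314 CPM in thymus cells and 557 and 561 CPM in fresh MLN cells. Tap2, its partner, had 220.3 and 226 CPM in cultured cells, 262 and 285 CPM in thymus cells and 357 and 341 CPM in fresh MLN cells. Tapbpl, a peptide editor, had 28.7 and 27.6 CPM in cultured cells, 88.7 and 95.3 CPM in thymus cells and 169.9 and 166 CPM in fresh MLN cells, and its log2 fold change of -2.58 in cultured over fresh MLN was larger than that of Psmb10 (-1.93). The 3 genes that rose were Calr, Canx and Pdia3, general chaperones of the endoplasmic reticulum, with Calr at 2485 and 2539 CPM in cultured, 534 and 536 CPM in thymus and 492 and 421 CPM in fresh MLN libraries.

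Proteasome subunit genes can be driven by Nfe2l1, a transcription factor made in the endoplasmic reticulum and released when proteasome activity falls short. Nfe2l1 had 345 and 319.6 CPM in cultured cells, 114 and 113 CPM in thymus cells and 127 and 128 CPM in fresh MLN cells. It was higher in cultured than in fresh MLN cells (log2 fold change 1.38 ± 0.07 SE, edgeR adjusted p = 4.7e-10) and than in thymus cells (1.55), and slightly lower in thymus than in fresh MLN cells (-0.18, adjusted p = 0.044), where most core subunits were higher. Nfe2l2, its relative in the oxidative stress response, had 60.3 and 59.2 CPM in cultured cells, 79.5 and 89.2 CPM in thymus cells and 79.4 and 83.1 CPM in fresh MLN cells and was lower in cultured cells than in both fresh groups. Of the 8 genes of proteasome gene regulation, 4 were higher and 2 lower in cultured than in fresh MLN cells, 4 higher and 2 lower in cultured than in thymus cells, and 1 higher and 1 lower in thymus than in fresh MLN cells. Those higher in cultured than in fresh MLN cells were Nfe2l1 itself and Vcp, Sel1l and Syvn1, which extract proteins from the endoplasmic reticulum. The lower ones were Nfe2l2 and Ngly1 (-0.26 against fresh MLN and -0.31 against thymus). Ddi2 (-0.11 against fresh MLN) was not called. Vcp was also the single gene of the list that rose in thymus over fresh MLN (0.49, adjusted p = 8.1e-05).

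Among 14 partners of the particle, 7 were higher and 5 lower in cultured than in fresh MLN cells, 7 higher and 2 lower in thymus than in fresh MLN cells, and 6 higher and 4 lower in cultured than in thymus cells, with medians near 0 (0.15, 0.10 and 0.08). Over all genes tested the shares higher and lower were 39.4% and 38.1%, 25.3% and 22.0%, and 34.8% and 37.8% in that order. Sem1, a small lid subunit whose symbol falls outside the naming pattern, had 108 and 114 CPM in cultured cells, 64.6 and 71.6 CPM in thymus cells and 56.1 and 52.9 CPM in fresh MLN cells and a log2 fold change of 1.03 in cultured over fresh MLN. Pomp, the chaperone that matures the beta rings, had 88.5 and 96.5 CPM in cultured cells, 70.5 and 82.1 CPM in thymus cells and 51.5 and 54.0 CPM in fresh MLN cells and was higher in cultured (0.81) and thymus cells (0.53) than in fresh MLN cells. Txnl1, a redox protein bound to the regulator, changed most in culture (1.30), and Uchl5, a deubiquitinase of the base, changed most in thymus over fresh MLN (0.72). Zfand5, a proteasome activator induced in muscle wasting, ran against the core in culture, with 61.7 and 65.2 CPM in cultured, 128 and 126 CPM in thymus and 96.6 and 111 CPM in fresh MLN libraries.

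**Figure D5:**
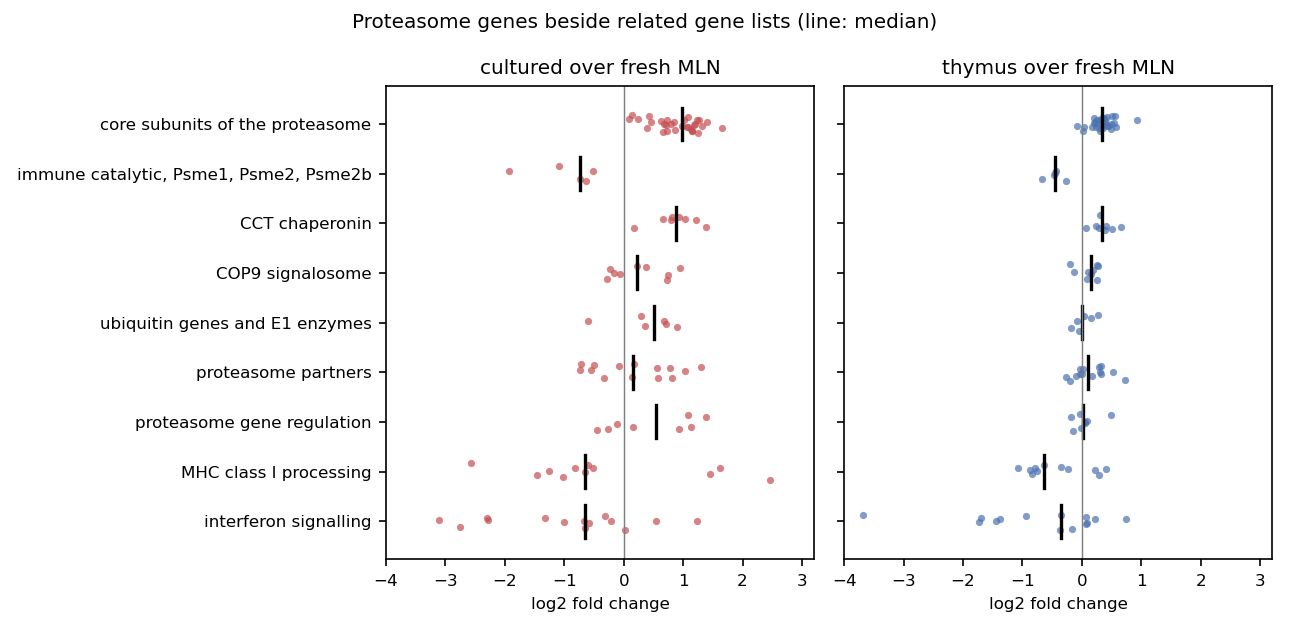
Log2 fold change (x axis) of single genes (points) in the proteasome core, the immune subunits and related gene lists (rows), with the list median as a line, in cultured over fresh MLN (left) and thymus over fresh MLN (right). The core has a median above 0 in both panels, and interferon signalling has medians of -0.65 in the left panel and -0.36 in the right panel.

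Markers of other cell types were summed in each library. The 8 macrophage and monocyte markers reached 25.2 to 27.7 CPM in the cultured, 9.5 to 13.1 CPM in the thymus and 88.4 to 91.9 CPM in the fresh MLN libraries, highest where Psmb8 and Psmb10 were highest. Most of the fresh MLN sum was Cybb, at 72.2 and 66.8 CPM, while Cd68 was highest in the cultured libraries (16.9 and 16.0 CPM). The 7 B cell markers reached 109 to 123 CPM in the cultured, 75.2 to 82.3 CPM in the thymus and 155 to 201 CPM in the fresh MLN libraries, with Ighm as the main term, Cd79b highest in the cultured libraries (47.1 and 50.3 CPM), Ms4a1 at 0 in the cultured libraries and Pax5 at 0 in the fresh MLN libraries. The 8 dendritic cell markers summed to 39.7 to 44.3 CPM in the cultured, 11.6 to 14.1 CPM in the thymus and 31.2 to 35.3 CPM in the fresh MLN libraries, with Clec9a and Cd209a at 0 in the cultured and Siglech at 0 in the thymus libraries. The cultured sum was almost all Xcr1 (38.8 and 33.4 CPM). The other 4 markers tested, Flt3, Zbtb46, Fscn1 and Itgax, were highest in fresh MLN cells and lower in both cultured and thymus cells. The 8 T cell markers summed to 54.7 to 62.9 CPM in cultured, 95.2 to 96.3 CPM in thymus and 110 to 116 CPM in fresh MLN libraries, with Rag1 at 0 in the cultured and Ptcra at 0 in the thymus libraries. The main term was Cd3e, with 43.2 and 47.6 CPM in cultured cells, 73.9 and 72.7 CPM in thymus cells and 90.2 and 101 CPM in fresh MLN cells, the order of Psmb8 and Psmb10. Cd3g and Cd8b1 had group means in the same order, but their thymus and fresh MLN libraries overlapped. The Cd3g means were 12.3 CPM in cultured, 14.97 CPM in thymus and 15.3 CPM in fresh MLN cells, with no call. The Cd8b1 means were 0.0151, 0.374 and 0.471 CPM, and it was called lower in cultured cells than in both fresh groups. Cd8a was also called lower in cultured cells than in both, but its mean was highest in thymus cells. Cd4, Rag1, Ptcra and Trac did not follow the order either. Cd4 (log2 fold change 2.58) and Rag1 (5.03) were higher in thymus than in fresh MLN cells. Trac was higher in cultured than in fresh MLN cells (1.29). The 6 NK cell markers summed to 147 to 250 CPM in cultured, 42.9 to 47.7 CPM in thymus and 66.2 to 71.3 CPM in fresh MLN libraries. The cultured sum was almost all Gzma (94.1 and 188 CPM) and Prf1 (52.8 and 61.3 CPM). Ncr1, Eomes, Klrb1c and Klra8 were lower in cultured and in thymus than in fresh MLN cells, with Klrb1c and Klra8 at 0 in the cultured libraries. The 8 thymic epithelium markers summed to 40.5 to 44.0 CPM in cultured, 7.5 to 8.3 CPM in thymus and 6.8 to 7.4 CPM in fresh MLN libraries, with Ctsl at 35.6 and 36.3 CPM in the cultured libraries, Foxn1 at 0 in the cultured libraries and Psmb11, Foxn1, Krt5 and Krt8 at 0 in the fresh MLN libraries. The part of these cells in the levels of the immune subunits, and the part of cell division in those of the core, was not tested.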

How the data were processed

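Messenger RNA was sequenced from sorted ILC2 of 3 groups with 2 libraries each, with a stranded kit per the labels. The files deposited by the authors give a raw count of reads per Ensembl gene and library, with no normalization. Builds mm9 and NCBIM37 and the tool HTSeq 0.5.3p9 are listed per the submitters' processing notes. Which aligner, annotation release and strand option were used is not given in the sources used here, so genes overlapping another gene on the other strand have uncertain counts, and so do Psme2 and its copy Psme2b.

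Symbols were matched by identifier to GENCODE M21, which named 32919 of the 37991 identifiers. Of 54 symbols that fit the naming rule, 52 had an identifier in the files and 50 had a count; Psmb9 was not analysed here. The rows naming no gene were 0. All libraries entered 1 fit in edgeR 4.0.16 (R 4.3.3, limma 3.58.1): filterByExpr, TMM factors, glmQLFit with a group term, glmQLFTest for each of the 3 contrasts, and Benjamini-Hochberg adjustment over the 16231 genes kept. The residual degrees of freedom were 3, the prior degrees of freedom 9.54 and the common biological coefficient of variation 0.0662. The SE of a log2 fold change was taken as its size over the square root of the F statistic. The fit was tested on simulated counts.

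Levels per kilobase use the length of the principal transcript in GENCODE M21, which is on another build than the counts; no coordinates were taken from it. Start-site windows come from RefSeq (GRCm38.p6). Replicates were compared first: the chi-square per degree of freedom over genes was 8.36 for the cultured pair, 13.5 for the thymus pair and 10.2 for the fresh MLN pair, so no pair is 1 library deposited in duplicate.

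Genes named are the catalytic subunits, Psmb11, Psma8, the activators and Psmf1, the highest and lowest log2 fold change of each class in each comparison, a fixed set of regulators, and up to 2 called genes of each related list with at least 5 CPM. Proteasome genes outside this rule are named where every gene of a class is accounted for. Single genes of the related lists, such as Adrm1 and Ifngr1, are also named outside it. Some genes of the related lists are not reported here. The genes and lists were chosen with earlier results of these data known. Alternatives were RLE and upper-quartile factors, library totals, no filter, a filter of 5 CPM in 2 libraries, protein-coding genes only, DESeq2 1.42.0, a test against a 2-fold change, fits on 2 groups only, a replicate block, each library left out in turn and, added after the data were seen, Psme2 and Psme2b summed. The log2 ratios of the catalytic pairs were also taken per principal transcript length, the length used for the shares. No other length was tried.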

Additional observations from a re-analysis of the deposited data

How the results depend on the processing

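Counts of proteasome genes called stayed within 1.5 times their value under RLE and upper-quartile factors, no filter, a 5 CPM filter, protein-coding genes only, DESeq2, fits on 2 groups, the replicate block and each library left out. Leaving out 1 library gave 38 to 43 genes called in cultured over fresh MLN, 28 to 35 in thymus over fresh MLN and 33 to 37 in cultured over thymus. The test against a 2-fold change, which asks for a larger effect, called 12 proteasome genes in cultured over fresh MLN (11 higher, 1 lower; 5676 of all genes), 1 in thymus over fresh MLN (1 higher, 0 lower; 1298 of all genes) and 2 in cultured over thymus (1 higher, 1 lower; 4455 of all genes). Under library totals, 11 were called lower in cultured over thymus. The differences in immune share were rerun only with transcript length and with each library left out. Neither could turn their direction, because fixed lengths cancel between groups and the groups did not overlap. These reruns therefore say nothing on how stable the differences are.

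The labels give no shared source for libraries of the same number, and with 2 libraries in a group the data cannot settle whether the numbers pair them: the correlation of deviations of same-numbered libraries over 16231 genes was 0.115 in thymus over fresh MLN, 0.0339 in cultured over fresh MLN and 0.0211 in cultured over thymus. With a replicate block, 43 proteasome genes were called in cultured over fresh MLN, 38 in thymus over fresh MLN and 37 in cultured over thymus. The calls gained were those of Psma7, Psmb4 and Psmd10 in thymus over fresh MLN and of Psmd11 in cultured over fresh MLN, all higher.

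Direction turned in genes with small log2 fold changes. Turns with library totals came with the change of scaling, which moved the median of all genes by 0.03 in thymus over fresh MLN. That median moved by -0.22 in cultured over fresh MLN and by -0.26 in cultured over thymus. Psmc2 (0.22), Psmd4 (0.23), Psmd10 (0.21) and Psme3 (0.20) had been called higher in cultured over thymus with TMM. The cause of the other turns was not tested. In thymus over fresh MLN, Psmd4 had a log2 fold change of -0.017 with RLE factors and with DESeq2, -0.0087 with upper-quartile factors, -0.0029 with the 5 CPM filter and -0.0036 with protein-coding genes only, and Psme4 had 0.0061 with library totals. With library totals, Psma3 had -0.13 and Psmd11 -0.078 in cultured over fresh MLN, and in cultured over thymus Psma3 had -0.088, Psma4 -0.23, Psmc2 -0.039, Psmc3 -0.12, Psmd4 -0.029, Psmd9 -0.10, Psmd10 -0.051, Psmd11 -0.14 and Psme3 -0.055. Psmf1 had 0.020 in cultured over thymus with RLE factors and with DESeq2. With 1 library left out, the log2 fold change in thymus over fresh MLN ran from -0.065 to 0.096 for Psmd4, from -0.077 to 0.029 for Psme4, from -0.26 to 0.64 for Psma8 and from -0.025 to 0.14 for Nfe2l2. In cultured over thymus it ran from -0.0080 to 0.059 for Psma4 and from -0.11 to 0.043 for Psmf1. Psmg2 (0.04) and Psmg4 (0.01) in thymus over fresh MLN also turned in some settings. So did Psmg3 (-0.008) and Psmc3ip (-0.004) in cultured over thymus, and none of these values was called in the main fit.

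With 2 libraries in a group the smaller steps in thymus over fresh MLN moved in and out of the calls with the library left out.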

Other observations

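Complexes built on a similar plan were read beside the proteasome. The 8 subunits of the CCT chaperonin, which folds actin and tubulin, were all higher in cultured than in fresh MLN cells, and 7 were higher in thymus than in fresh MLN cells and in cultured than in thymus cells, with median log2 fold changes of 0.88, 0.34 and 0.54. Tcp1 had 441 and 468 CPM in cultured cells, 234 and 228 CPM in thymus cells and 178 and 171 CPM in fresh MLN cells, and Cct6a had 203 and 218 CPM in cultured cells, 149.7 and 137 CPM in thymus cells and 95.3 and 85.6 CPM in fresh MLN cells. Cct4 was nearly flat, with 309.5 and 304 CPM in cultured cells, 277 and 293 CPM in thymus cells and 274 and 268 CPM in fresh MLN cells. The 9 subunits of the COP9 signalosome, a relative of the 19S lid that removes NEDD8 from cullins, gave calls in both directions: 5 were higher and 3 lower in cultured than in fresh MLN cells, 4 higher and 1 lower in thymus than in fresh MLN cells, and 4 higher and 1 lower in cultured than in thymus cells. These shares are to be read beside those over all genes, of which 39.4% were called higher and 38.1% lower in cultured than in fresh MLN cells, 25.3% and 22.0% in thymus than in fresh MLN cells, and 34.8% and 37.8% in cultured than in thymus cells. Cops2 was the most changed in culture, with 153 and 149 CPM in cultured, 93.8 and 94.3 CPM in thymus and 78.8 and 78.2 CPM in fresh MLN libraries.

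Of 6 ubiquitin genes and E1 enzymes, 5 were higher and 1 lower in cultured than in both fresh groups, and 1 was higher in thymus than in fresh MLN cells (Uba6, log2 fold change 0.28). These counts are to be read beside the same shares over all genes. Uba1, the main E1 enzyme, had 694 and 719 CPM in cultured cells, 482 and 472 CPM in thymus cells and 444 and 415 CPM in fresh MLN cells. Rps27a, which encodes ubiquitin fused to a ribosomal protein, was lower in cultured than in fresh MLN cells (-0.60); it has many pseudogenes, so its value is uncertain.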
